A study of Mus musculus with 9 samples.

Results

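The proteasome genes described here are the rows of the gene-body table whose symbol begins with Psma, Psmb, Psmc, Psmd, Psme, Psmf or Psmg and a number. There were 50 of them among 24391 genes, and 48 of the 13825 genes that passed the filter on low counts. The 2 that did not pass were Psmb11, the thymus-specific beta subunit with 19 reads or fewer in every group, and Psme2b. One of the 50, Psmc3ip, encodes a recombination cofactor that is no part of the proteasome and was kept because the symbol rule takes it. The 9 libraries are PRO-seq, a run-on assay whose reads come from RNA that polymerases were making at harvest, from mouse erythroid lines. G1E-ER4 cells hold a GATA1 fusion that estradiol activates through its oestrogen receptor domain. Estradiol, at 100 nM, was given for 24 h in 2 libraries and for 13 h in 2, and 3 libraries are from untreated cells (0 h). The parental G1E line lacks working GATA1, was not treated and has 2 libraries. All cells, treated or not, grew with epoetin and medium from kit ligand-producing cells, and both lines are cultured models that descend from the same GATA1-deficient cells. The labels do not say that replicates were separate cultures, so a p-value here speaks only of the spread among the libraries at hand, which may be technical.

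The proteasome is the barrel-shaped protease that degrades ubiquitin-tagged proteins. Its 20S core has alpha rings (Psma genes) that gate the entry and beta rings (Psmb genes) that cut. The 19S cap has a base with a ring of ATPases (Psmc genes) that unfolds substrates, and a lid and ubiquitin receptors (Psmd genes). Other caps (Psme genes), the inhibitor PI31 (Psmf1) and assembly chaperones (Psmg genes, with some Psmd genes) act on it. Maturing red cells are known to rely on it for clearing surplus proteins, such as unpaired globin chains and ribosomal proteins.

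Gene-body reads summed to between 37830789 and 139945759 per library. The 11 erythroid markers had a summed level of 978 to 1212 CPM (read counts scaled to a common library size with TMM factors) at 0 h, 2588 to 3070 at 13 h, 4931 to 5880 at 24 h and 1085 to 1371 in G1E. Of them, 10 were called higher at 24 h than at 0 h, while Hbb-b1 had no read in G1E. The 9 mast cell and basophil markers summed to 0.818 to 0.991 CPM at 24 h, against 37 to 85.1 CPM at 0 h, and the 4 of them tested were called lower; Mcpt4 and Mcpt8 had 0 reads in all libraries. The 8 megakaryocyte markers summed to 37.8 to 53.7 CPM at 0 h and 73.3 to 116 CPM at 24 h. Their sums were highest at 13 h, at 132 to 135 CPM, and were 59.9 to 66.4 CPM in G1E. Granulocyte and monocyte markers stayed at or below 0.749 CPM and lymphocyte markers at or below 4.47 CPM in every library. The part of these marker shifts in the values below was not tested. In these bulk samples, fewer cells of a type and less RNA per cell cannot be told apart.

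The proteasome genes did not move as a block during the estradiol time course. At 24 h against 0 h, 14 of the 48 were called higher and 12 lower, and 22 were not called, at a Benjamini-Hochberg adjusted p below 0.05 over all genes in edgeR's quasi-likelihood test. Of all genes tested, 29% were called higher and 30.7% lower, so the members' shares, 29.2% and 25%, lay near or below the background. Their median change was 0.02 on the log2 scale, beside -0.07 for all genes. Scaling by total counts in place of TMM moved the median of all genes to -0.45 and the members' calls to 9 higher and 22 lower, so directions here are relative to the bulk of genes. Of the called members, 9 of the 14 higher and 8 of the 12 lower stayed past the test under every alternative tried. The ones that stayed higher were Psma8, Psmc2, Psmc6, Psmd4, Psmd8, Psmd9, Psmd13, Psme4 and Psmf1, and those that stayed lower were Psma7, Psmb3, Psmb8, Psmd3, Psmd5, Psme3, Psmg1 and Psmg4.

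**Figure D1:**
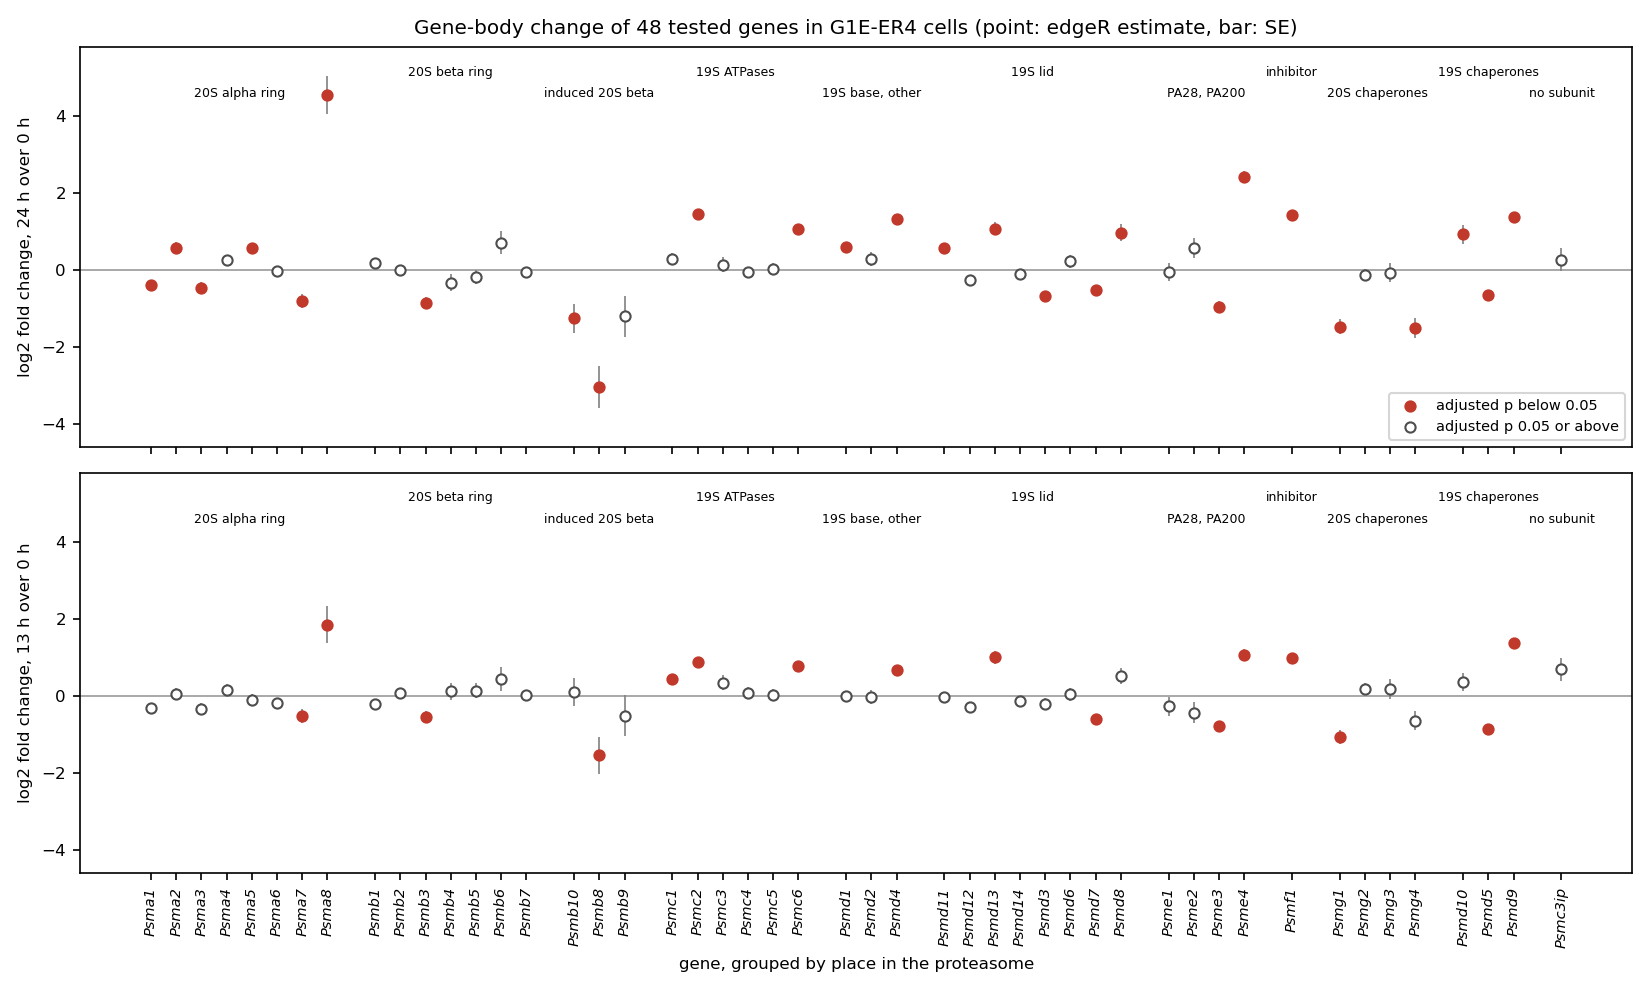
Gene-body log2 fold change of the 48 tested genes at 24 h over 0 h (top) and 13 h over 0 h (bottom), by place in the proteasome, with bars for the SE and filled points where the adjusted p was below 0.05. Psme4 and Psma8 reach 2.43 and 4.56 at 24 h over 0 h and Psmb8 lies at -3.03, while 6 of the 7 constitutive beta genes are open points, between -0.32 and 0.72.

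The sequences just upstream of 6 genes are shown as examples, chosen after their values were seen, of genes whose calls at 24 h against 0 h stayed under every alternative. They are Psme4, Psmf1, Psmd4 and Psmd9 (higher at 24 h than at 0 h) and Psmg1 and Psme3 (lower), and some other genes, such as Psma8 and Psmb8, changed more. Each is the 150 bases before the annotated start, 5′ to 3′ on the gene's strand, from RefSeq in build GRCm38.p6. The stretches lie at chr11:30771625-30771774 (plus strand), chr2:151741311-151741460 (minus), chr3:95042615-95042764 (minus), chr5:123228040-123228189 (plus), chr16:95990961-95991110 (minus) and chr11:101316063-101316212 (plus). Capitals mark matches on either strand. The motifs searched were the ETS site with the letters CCGGAAG, the GC box with the letters GGGCGG and the CCAAT box. Further motifs were the GATA site with the letters AGATAA, the E-box with the letters CACGTG, and the core of the antioxidant response element with the letters TGACNNNGC. Neighbouring matches can share letters, as the ETS site and GC box of Psme4 do.
Psme4: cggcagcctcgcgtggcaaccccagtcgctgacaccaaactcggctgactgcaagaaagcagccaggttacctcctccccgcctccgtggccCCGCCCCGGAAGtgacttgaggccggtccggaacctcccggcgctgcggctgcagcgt
Psmf1: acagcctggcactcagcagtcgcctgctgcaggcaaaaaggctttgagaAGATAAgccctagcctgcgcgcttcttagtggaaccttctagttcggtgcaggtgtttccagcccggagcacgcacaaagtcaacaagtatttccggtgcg
Psmd4: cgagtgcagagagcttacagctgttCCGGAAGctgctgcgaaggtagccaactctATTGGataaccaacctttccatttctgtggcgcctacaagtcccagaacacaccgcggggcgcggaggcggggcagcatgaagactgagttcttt
Psmd9: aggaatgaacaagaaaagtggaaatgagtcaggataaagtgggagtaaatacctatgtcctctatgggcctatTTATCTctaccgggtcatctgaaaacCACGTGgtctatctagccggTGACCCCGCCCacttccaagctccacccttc
Psmg1: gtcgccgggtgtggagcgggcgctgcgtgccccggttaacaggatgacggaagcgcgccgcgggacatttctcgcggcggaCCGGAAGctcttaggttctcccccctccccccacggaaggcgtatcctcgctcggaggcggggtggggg
Psme3: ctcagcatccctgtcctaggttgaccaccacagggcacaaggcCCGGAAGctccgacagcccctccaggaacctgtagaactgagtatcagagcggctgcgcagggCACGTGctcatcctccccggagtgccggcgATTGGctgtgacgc

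Across windows from 250 bases before to 50 after the start, 42 of the 50 genes had an entry, in 45 windows. The ETS site was found in 16 of the 45 windows (35.6%), with Psmc2 entering more than once, beside 8.86% of 32851 windows of all genes. The windows of all genes were not limited to genes that passed the filter on low counts, which 48 of the 50 members did. For every motif here the sets therefore differ in kind, and the gaps were not tested. The GC box was found in 53.3% of the members' windows (all windows 35.7%), the CCAAT box in 33.3% (37.4%) and the antioxidant response core in 13.3% (12.4%). The GATA site was found in 6.67% (11.2%), in Psmc6, Psmd9 and Psmf1, and the E-box in 8.89% (7.15%). Psmg1 and Psma2 held the palindromic site of nuclear respiratory factor 1 (4.44% of the members' windows), which 0.971% of all windows held. A match is a string of letters and shows no binding.

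Psme4 encodes PA200, a cap that opens the core without ubiquitin or ATP and is known for the degradation of acetylated histones. It had the second largest rise at 24 h over 0 h, after Psma8. Its level was 213, 191 and 201 CPM in the 0 h libraries, 469 and 378 CPM at 13 h, 920.2 and 1249 CPM at 24 h, and 214 and 202 CPM in G1E. Every 24 h library lay above both 13 h libraries, and these lay above every 0 h library. The change was 2.43 ± 0.15 (log2 ± SE, adjusted p = 1.2e-06), a 5.38-fold increase at 24 h over 0 h, and 1.07 ± 0.15 at 13 h over 0 h (adjusted p = 0.00039). Its start in the peak table is at position 30671775 of chromosome 11 (mm9, plus strand). The annotated models of Erlec1 and Gm12103 overlap Psme4, and whether the counts use strand is not stated. Erlec1 itself was at 59.8 and 65.4 CPM at 24 h, against 54.2, 48.5 and 51.9 CPM at 0 h.

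The gene bodies of the other caps differed from that of PA200. Psme3, the nuclear PA28 gamma cap, was at 32.8 and 29.8 CPM at 24 h, against 66.9, 55.9 and 58.1 CPM at 0 h, with 37 and 32.3 CPM at 13 h already below every 0 h library. It fell by 0.95 ± 0.15 on the log2 scale at 24 h against 0 h (adjusted p = 0.00037) and by 0.80 ± 0.15 at 13 h against 0 h (adjusted p = 0.0021). Psme1 and Psme2, the interferon-induced PA28 subunits, were not called at 24 h against 0 h. Psme1 was at 5.25 and 7.11 CPM at 24 h, against 6.16, 5.78 and 7.21 CPM at 0 h, groups that overlapped. Psme2 was at 5.87 and 7.06 CPM at 24 h, against 4.41, 3.59 and 4.93 CPM at 0 h (log2 0.58 ± 0.26, adjusted p = 0.076). The model of Emc9 overlaps Psme1, and Emc9 rose by 2.24 ± 0.24 at 24 h over 0 h. Psme2b, a close copy of Psme2 that could share its reads, had 2 reads over the 24 h libraries and 5 over the 0 h libraries, a depth-adjusted ratio of 0.778 (95% counting interval 0.0741 to 4.75).

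Psmf1 encodes PI31, first described as an inhibitor of the core and also known as an adaptor for proteasome transport. It was at 84.5, 73.3 and 76.7 CPM at 0 h, 145 and 162 CPM at 13 h, 198 and 226 CPM at 24 h, and 76.9 and 85.9 CPM in G1E. The time points did not overlap, and Psmf1 rose by 1.44 ± 0.13 at 24 h over 0 h (adjusted p = 8e-06) and by 0.98 ± 0.13 at 13 h over 0 h (adjusted p = 0.00026). The model of Tmem74b overlaps it. Its start lies at position 151567046 of chromosome 2 (mm9, minus strand).

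**Figure D2:**
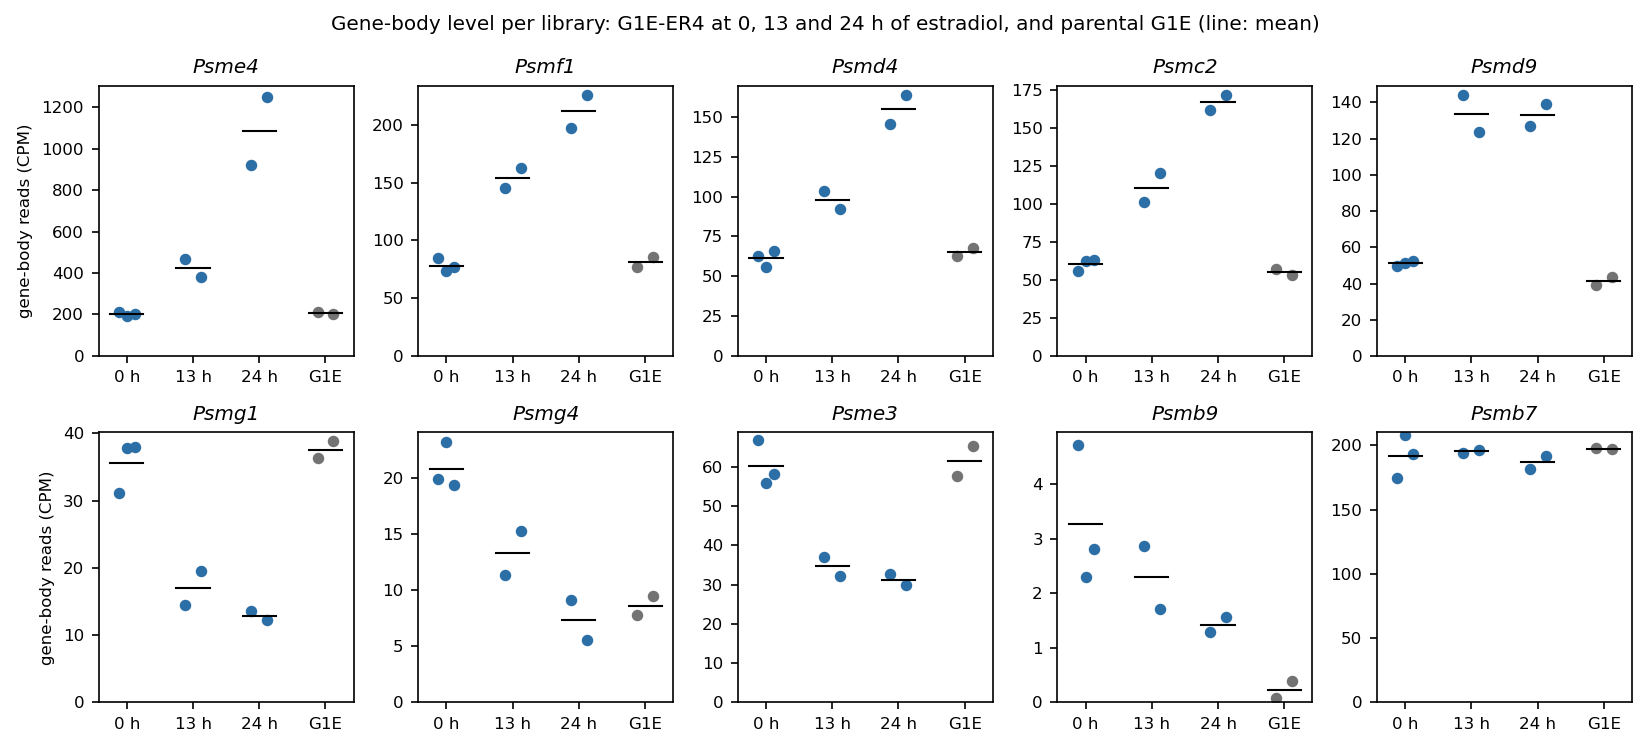
Gene-body level in CPM per library for 10 genes, in G1E-ER4 cells at 0 h, 13 h and 24 h of estradiol and in parental G1E cells, with lines at the group means. Psme4, Psmf1, Psmd4 and Psmc2 step up with time, Psmd9 is as high at 13 h as at 24 h, Psmg1, Psmg4 and Psme3 step down, Psmb9 is lowest in G1E, and Psmb7 overlaps between groups.

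Of the 6 ATPases of the 19S base, 2 were called at 24 h against 0 h, both higher. Psmc2 (Rpt1) was at 162 and 172 CPM at 24 h, 102 and 120.3 CPM at 13 h and 55.8, 62.5 and 63.1 CPM at 0 h, and rose by 1.47 ± 0.13 at 24 h over 0 h (adjusted p = 7.3e-06). Psmc6 (Rpt4) was at 163 and 177 CPM at 24 h and 71.2, 85.3 and 86.4 CPM at 0 h, and rose by 1.07 ± 0.12 (adjusted p = 4.7e-05). The groups of both genes did not overlap. The other 4, Psmc1, Psmc3, Psmc4 and Psmc5, had changes between -0.06 and 0.29 at 24 h over 0 h, none called. Psmc4 was at 33.7 and 30 CPM at 24 h, against 30.8, 34.2 and 34.3 CPM at 0 h, groups that overlapped. Psmc1 was called higher at 13 h over 0 h by 0.43 ± 0.15 (adjusted p = 0.045), a call lost without 13 h replicate 1, where the change was 0.24, and without any 1 of 6 other libraries.

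Of the 3 other genes of the base, Psmd4 and Psmd1 were called higher at 24 h over 0 h and Psmd2 was not. Psmd4 encodes Rpn10, a ubiquitin receptor. It was at 62.7, 55.8 and 65.7 CPM at 0 h, 103 and 92.2 CPM at 13 h, 146 and 164 CPM at 24 h, and 62.7 and 67.6 CPM in G1E. Psmd4 rose at 24 h over 0 h by 1.34 ± 0.13 (adjusted p = 1.4e-05) and at 13 h over 0 h by 0.67 ± 0.13 (adjusted p = 0.0025). Psmd1, the Rpn2 scaffold, was at 514 and 578 CPM at 24 h and 309.6, 369 and 401 CPM at 0 h, a rise of 0.60 ± 0.13 (adjusted p = 0.0027), while the 13 h libraries, at 365 and 353 CPM, lay among those of 0 h. Under total-count scaling the Psmd1 change was 0.22 (adjusted p = 0.127), and with the title prefixes as a block 0.45 (adjusted p = 0.0616). Psmd2, the Rpn1 scaffold, changed by 0.29 ± 0.18 and was not called.

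The 8 lid genes split, with 3 called higher, 2 lower and 3 not called at 24 h against 0 h. Psmd13 was at 91.8 and 111 CPM at 24 h, 113 and 79.6 CPM at 13 h and 47.4, 45.2 and 51.5 CPM at 0 h. It rose by 1.08 ± 0.17 at 24 h over 0 h (adjusted p = 0.00038) and had reached that level at 13 h. Psmd8 rose by 0.98 ± 0.22, and Psmd11, known for its part in lid stability, by 0.57 ± 0.11, at 246 and 268 CPM at 24 h against 157, 178 and 183 CPM at 0 h. Under total-count scaling the change of Psmd11 was 0.19 and not called. Psmd3 was at 51.9 and 44.6 CPM at 24 h and 70, 76.9 and 83.7 CPM at 0 h, and fell by 0.67 ± 0.14 (adjusted p = 0.0019). Psmd7 fell by 0.52 ± 0.14 at 24 h against 0 h, a call lost without 24 h replicate 2 (-0.38, adjusted p = 0.096) and with the replicate block (-0.48, adjusted p = 0.0529). Psmd14, the deubiquitinase of the lid, was at 255 and 287 CPM at 24 h, against 297, 277 and 299.9 CPM at 0 h, and it was not called, like Psmd6 and Psmd12.

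In the alpha ring, 3 of 8 genes were called higher and 3 lower at 24 h against 0 h. Psma8, the testis-specific alternative to Psma7, was near 0 before estradiol, with 0.416, 0.155 and 0.433 CPM at 0 h, 1.6 and 0.852 CPM at 13 h, 6.28 and 9.77 CPM at 24 h, and 0.441 and 0.652 CPM in G1E. Its change of 4.56 ± 0.49 at 24 h over 0 h (adjusted p = 2.9e-05) rests on 1258 reads over both 24 h libraries and 108 over the 0 h libraries. At 13 h over 0 h it was 1.85 ± 0.47 and no longer called without 13 h replicate 1 (1.34, adjusted p = 0.105). Psma7 was at 38.4 and 40.4 CPM at 24 h, against 78.9, 65.7 and 60 CPM at 0 h, and fell by 0.79 ± 0.19 (adjusted p = 0.0042). The others were small. Psma5 rose by 0.57 ± 0.13 and Psma2 by 0.57 ± 0.16, both not called under total-count scaling (0.19 and 0.18), and Psma2 not without 24 h replicate 2 (0.35). Psma1 fell by 0.38 ± 0.13 and Psma3 by 0.46 ± 0.15. With the title prefixes as a block, Psma5, Psma2, Psma1 and Psma3 were at 0.44, 0.46, -0.42 and -0.45, none called, and the replicate block also lost Psma1 and Psma3 (-0.36 and -0.46). The model of 3110056K07Rik overlaps Psma3, and it was at 119 and 92.8 CPM at 24 h, against 146, 143 and 126 CPM at 0 h (-0.39 ± 0.17, not called). The Psma1 call was lost without 24 h replicate 1 or 2 or 0 h replicate 2 or 3 (-0.39, -0.37, -0.37 and -0.36), and the Psma3 call without 24 h replicate 2 (-0.34) or 0 h replicate 1 or 3 (-0.43 and -0.46). Psma4 and Psma6 were not called.

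In the constitutive beta ring, 1 of 7 genes was called at 24 h against 0 h. Its 3 catalytic genes were not called. Psmb5, of the chymotrypsin-like site, was at 10 and 8.83 CPM at 24 h, against 11.4, 9.77 and 10.7 CPM at 0 h (-0.17 ± 0.19). Psmb6, of the caspase-like site, was at 7.61 and 8.48 CPM at 24 h, against 6.32, 3.43 and 4.94 CPM at 0 h (0.72 ± 0.31, adjusted p = 0.066). Psmb7, of the trypsin-like site, was at 182 and 192 CPM at 24 h, against 175, 208 and 193 CPM at 0 h (-0.04 ± 0.11). The called gene was Psmb3, a structural subunit, at 36 and 34.8 CPM at 24 h and 65.2, 61.4 and 65.9 CPM at 0 h, which fell by 0.86 ± 0.15 (adjusted p = 0.00078). Psmb1, Psmb2 and Psmb4 had changes of 0.19, 0.00 and -0.32 and were not called.

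The interferon-induced catalytic subunits, which replace the constitutive ones in the immunoproteasome, had 2 of 3 tested genes called at 24 h against 0 h, both lower. Psmb8 had 12 reads over the 24 h libraries, 184 over the 0 h libraries and 5 over the G1E libraries. Its levels were 0.0536 and 0.0991 CPM at 24 h, against 0.529, 0.904 and 0.495 CPM at 0 h, a fall of 3.03 ± 0.55 on the log2 scale (adjusted p = 0.00085). Psmb10 was at 5.83 and 3.95 CPM at 24 h, against 11.7, 11.8 and 11.4 CPM at 0 h, and fell by 1.25 ± 0.38, a call lost without 24 h replicate 2 (-0.99, adjusted p = 0.125) and with the title prefixes as a block (-1.22, adjusted p = 0.0618). The 13 h libraries of Psmb10 lay apart, at 6.6 and 18.3 CPM. Psmb9 was at 1.29 and 1.56 CPM at 24 h, against 4.71, 2.3 and 2.82 CPM at 0 h, and its change of -1.20 ± 0.54 was not called (adjusted p = 0.08).

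Of the 4 chaperones that build the 20S core (PAC1 to PAC4), Psmg1 and Psmg4 were called lower at 24 h than at 0 h, and Psmg2 and Psmg3 were not called. Psmg1 was at 31.2, 37.8 and 37.9 CPM at 0 h, 14.4 and 19.6 CPM at 13 h, 13.6 and 12.2 CPM at 24 h, and 36.3 and 38.8 CPM in G1E. It fell by 1.47 ± 0.19 at 24 h against 0 h (adjusted p = 8.8e-05) and by 1.07 ± 0.18 at 13 h against 0 h (adjusted p = 0.0014). Psmg4 was at 9.16 and 5.6 CPM at 24 h, against 19.9, 23.2 and 19.4 CPM at 0 h, and fell by 1.50 ± 0.26 (adjusted p = 0.00072). The chaperones of the 19S base went both ways. Psmd9 (p27) was at 127 and 139 CPM at 24 h, 144 and 123 CPM at 13 h and 49.8, 51.4 and 52.6 CPM at 0 h, and rose by 1.37 ± 0.12 at 24 h over 0 h (adjusted p = 9.8e-06). Psmd10 (gankyrin) rose by 0.93 ± 0.24, at 13.5 and 15.2 CPM at 24 h against 8.1, 6.89 and 7.64 CPM at 0 h, and was not called under total-count scaling (0.54). The model of Atg4a overlaps Psmd10, and Atg4a rose by 0.83 ± 0.21. Psmd5, a chaperone known also for restraining assembly, was at 64.2 CPM in both 24 h libraries, against 89.1, 103 and 108 CPM at 0 h, and fell by 0.64 ± 0.14 (adjusted p = 0.0023). Psmc3ip was not called (0.28 ± 0.30), and Mlx overlaps it.

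Some of these changes were already called at 13 h. At 13 h against 0 h, 9 of 48 genes were called higher and 7 lower, beside 20.1% and 20.9% of all genes. The 7 called higher under every alternative were Psmc2, Psmc6, Psmd4, Psmd9, Psmd13, Psme4 and Psmf1, with changes between 0.67 and 1.38. The 3 called lower under every alternative were Psmd5 (-0.87), Psme3 (-0.80) and Psmg1 (-1.07). The calls of Psma7, Psmb3, Psmb8 and Psmd7 (-0.52, -0.55, -1.54 and -0.60) were lost without 1 of the 13 h libraries: Psma7 was -0.63 and -0.40 without 13 h replicate 1 and 2, Psmb3 was -0.45 without replicate 2, Psmb8 was -1.43 and -1.65 without replicate 1 and 2, and Psmd7 was -0.49 without replicate 1. Psma7 was also not called without any 1 of the 0 h or 24 h libraries, with changes between -0.40 and -0.60, Psmb3 not without 0 h replicate 3 (-0.53), and Psmb8 not without 0 h replicate 2 (-1.22). Leaving out 13 h replicate 2 brought the count of lower calls to 4 (16.8% of all genes). With the replicate block, Psma7, Psmb3 and Psmc1 were at -0.60, -0.53 and 0.39, none called.

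At 24 h against 13 h, 10 genes were called higher and 3 lower, beside 11.7% and 12.5% of all genes, and none of these calls passed under every alternative. Psme4 rose again, by 1.36 ± 0.17 (adjusted p = 0.0015), and Psma8 by 2.71 ± 0.53 (2.05, adjusted p = 0.131, with the number prefixes of the titles as a block). Psme2 had 1.02, Psma5 0.67, Psmd4 0.66, Psmd11 0.61, Psmd1 0.60, Psmc2 0.59, Psmf1 0.46 and Psmb1 0.39. Psmb10, Psmg4 and Psmd3 fell by 1.35, 0.85 and 0.47, and without 13 h replicate 2 the Psmb10 change was -0.43 (adjusted p = 0.383). The count of higher calls was 6 without 13 h replicate 1, 4 without 13 h replicate 2 and 2 without 24 h replicate 2, while the share of all genes called higher was 7.36%, 6.34% and 4.72% in these fits. The count of lower calls was 0 without 0 h replicate 2, 0 h replicate 3 or 24 h replicate 2, and 1, Psmb10, without 13 h replicate 1. Without either G1E library or 13 h replicate 2 it was also 1, a gene other than these 3. With the number prefixes of the titles grouped as a block there were 0 and 0 calls (of all genes 0.159% and 0.268%). Grouped by consecutive prefixes, 0 h and 13 h replicate 1 fall together, as do 0 h and 13 h replicate 2. Both 24 h libraries fall with 0 h replicate 3 and G1E replicate 1, and G1E replicate 2 stands alone. With this block, here and elsewhere, 24 h against 0 h and 0 h against G1E therefore rest on 0 h replicate 3 for the 0 h side. The 24 h and 13 h libraries share no such prefix group, and the meaning of the prefixes is not stated in the labels.

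Few of these genes were called between G1E-ER4 cells before estradiol and the parental line. At 0 h against G1E, 4 genes were called higher and 2 lower, beside 7.88% and 9.58% of all genes. Psmb9 was at 4.71, 2.3 and 2.82 CPM in G1E-ER4 at 0 h, against 0.0801 and 0.386 CPM in G1E, with 962 reads against 24 reads over the groups and a change of 3.98 ± 0.67 (adjusted p = 0.0028). The Psmb9 change was 3.09 without G1E replicate 1, 5.33 without G1E replicate 2 and 5.11 with the title prefixes as a block, and was called in each. Psmb8 showed the same direction, 4.08 ± 0.63 (adjusted p = 0.0016), on 184 reads against 5, a call lost with the title prefixes as a block (3.98, adjusted p = 0.053). Psmg4 was at 19.9, 23.2 and 19.4 CPM at 0 h, against 7.78 and 9.52 CPM in G1E (1.27 ± 0.26, adjusted p = 0.0078), a call lost without G1E replicate 1 (1.14, adjusted p = 0.09). Psma7 was higher by 0.78 ± 0.19, a call lost without G1E replicate 1 (0.57). Psmb2 was lower, at 142, 129 and 132 CPM at 0 h, against 199 and 229 CPM in G1E (-0.67 ± 0.14), not called without G1E replicate 2 (-0.56). Psmd7 was also lower (-0.65 ± 0.14), not called without G1E replicate 1 or 2 (-0.63 and -0.66). Without G1E replicate 1 there were 2 higher calls and 1 lower (3.78% and 4.31% of all genes), and without G1E replicate 2 there were 0 lower (6.95%).

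The start elements gave a second readout of the same genes. The deposited peak table counts reads in the regions where polymerase initiates, either over a whole peak or by strand, and 44 of the 50 genes had an entry at their start (25 by gene strand, 19 as a whole peak). Of these entries, 17 were shared with or lay next to another gene's start, and their reads cannot be told apart. At 24 h against 0 h, 21 of 44 were called higher and 5 lower. Of 12973 start elements of all genes, 30% were called higher and 20.8% lower, and of all 35158 elements 22.7% and 29.5%. The start elements of all genes, here and below, include entries on the strand opposite the gene. The 44 leave these out, so the sets differ in kind. Of the members' 25 opposite-strand start entries, 6 were called higher and 3 lower (24% and 12%). The median log2 change was 0.45 for the 44, 0.16 for those 25 and 0.14 for all start elements, which is a description with no test. Of the higher calls among the 44, 13 stayed under every alternative, and of the lower calls 1, Psmb3. The count of lower calls was 2 without G1E replicate 2 or 24 h replicate 1 and 1 without 24 h replicate 2.

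Psmd4 had the largest start change on its own strand, at 137 and 144 CPM (of element reads) at 24 h, against 46.5, 23.5 and 38.7 CPM at 0 h, a rise of 1.95 ± 0.25 (adjusted p = 3.1e-05). Psme4 was at 136 and 154 CPM at 24 h, against 41.8, 41.3 and 36 CPM at 0 h (1.87 ± 0.17, adjusted p = 1.8e-06). On the opposite strand of the same Psme4 peak the change was 0.16 ± 0.24 and not called, while the opposite strand of Psmd4 rose by 2.01 ± 0.24. Psmc6, Psmc4, Psmd9, Psmd2 and Psmf1 rose by 1.38, 1.36, 1.24, 1.07 and 1.01, and Psmd13, Psmd10 and Psmd8, whose starts lie with those of Sirt3, Atg4a and Catsperg1, by 1.50, 1.46 and 1.01. Psme2, not called in its gene body at 24 h against 0 h, rose by 0.85 at its start (adjusted p = 0.0017). That call stayed under every alternative. Psmb3, which shares its start with Pcgf2, was at 26.1 and 26 CPM at 24 h, against 52.9, 54.4 and 48.2 CPM at 0 h, and fell by 0.99 ± 0.19 (adjusted p = 0.00067). Psmg4 fell by 0.92 and Psmg1, whose peak overlaps Brwd1, by 0.62, Psmg4 not called without 24 h replicate 2 (-0.60) and Psmg1 not without 24 h replicate 1 or 2 (-0.50 and -0.59) or G1E replicate 2 (-0.49). Psmb9, whose start is shared with Tap1, a peptide transporter gene, was at 21, 15.5 and 14 CPM in G1E-ER4 at 0 h, against 2.11 and 1.92 CPM in G1E (3.05 ± 0.32, adjusted p = 1.4e-05). At 13 h against 0 h, 7 start elements were called higher and 3 lower, beside 16% and 13.4% of all start elements, and the lower count was 1 without G1E replicate 2 or 13 h replicate 2. At 24 h against 13 h, 4 were called higher, beside 7.85% of start elements, with 1 left without 13 h replicate 2 and 2 without 24 h replicate 2 (5.1% of start elements were called lower). At 0 h in G1E-ER4 against G1E, 4 were called higher and 1 lower, beside 6.97% and 4.54%, with 2 higher without G1E replicate 1. The 1 lower call, Psmd7, was lost without either G1E library, 0 h replicate 2 or 3, or 24 h replicate 1 (-0.61, -0.49, -0.50, -0.59 and -0.54).

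**Figure D3:**
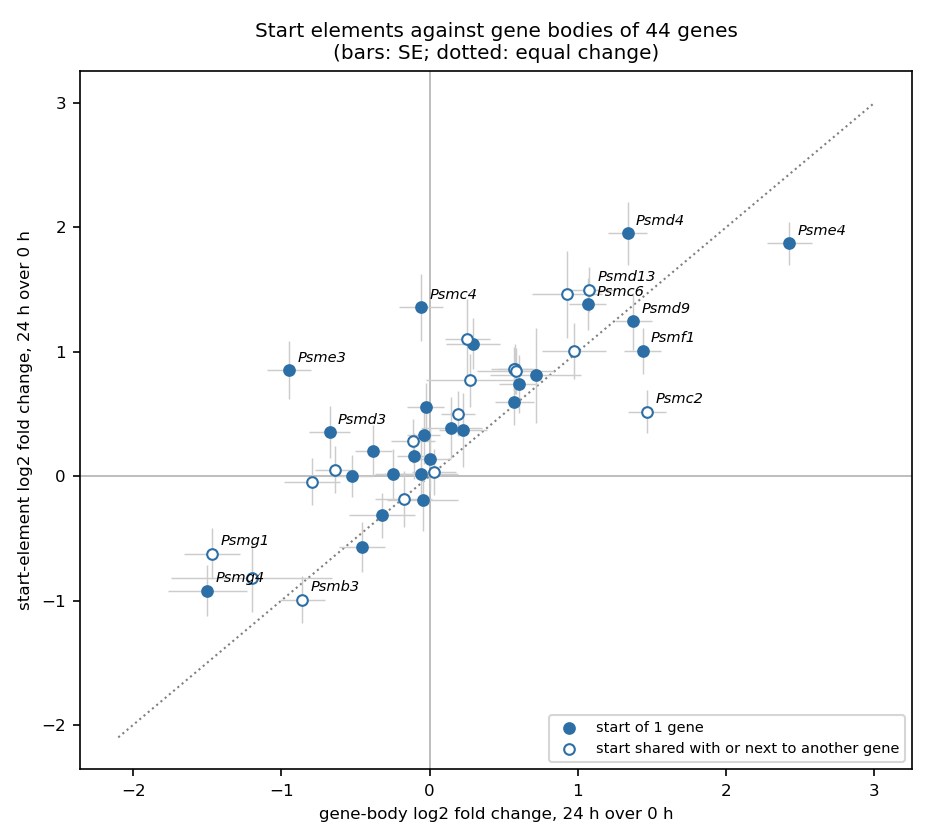
Log2 fold change at 24 h over 0 h of the start element (vertical) against that of the gene body (horizontal) for 44 genes, with bars for the SE, a dotted line of equal change and open points where the start is shared with or next to another gene. Psme4 lies below the dotted line, at 2.43 and 1.87, Psmc4 lies above it, at -0.06 and 1.36, and Psme3 has a gene body at -0.95 and a start at 0.85.

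Psme3 was higher at its start and lower in its body. Its start element on the gene strand was at 58.6, 41.7 and 50 CPM at 0 h, 52.6 and 29.5 CPM at 13 h, 96.8 and 84.3 CPM at 24 h, and 38.8 and 43.2 CPM in G1E. That is a rise of 0.85 ± 0.24 at 24 h over 0 h (adjusted p = 0.0078), not called without 24 h replicate 1 (0.76, adjusted p = 0.058). The opposite strand of the same peak was at 20.4 and 16.5 CPM at 24 h, against 30.5, 41.8 and 36.3 CPM at 0 h, and fell by 0.97 ± 0.23 (adjusted p = 0.0034). Psmc4 had a start element at 32.2 and 30.9 CPM at 24 h, against 16.3, 9.19 and 11.4 CPM at 0 h (1.36 ± 0.27, adjusted p = 0.00087), over a gene body that was not called.

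The ratio of start level to gene-body level, a measure chosen after these values were seen, was tested with limma on log2((start CPM + 0.5) / (body CPM + 0.5)) over 5828 genes whose start is theirs alone, 27 of them members. At 24 h against 0 h, the ratio was called higher in 7 members and lower in 1, beside 23.6% and 9.64% of genes. The log2 ratio of Psme3 was 1.55 and 1.49 at 24 h, against -0.19, -0.42 and -0.21 at 0 h, a rise of 1.79 ± 0.20 (adjusted p = 0.00023). Those of Psmc4 and Psmd3 rose by 1.42 ± 0.25 (adjusted p = 0.002) and 1.03 ± 0.20 (adjusted p = 0.0034), with no overlap between the groups. Psma1, Psma6, Psmd7 and Psmg4 had 0.53 to 0.58 and lost the call without 24 h replicate 2 (0.50, 0.64, 0.41 and 0.40) and without 24 h replicate 1 (0.65, 0.52, 0.64 and 0.71) or 0 h replicate 2 (0.53, 0.57, 0.52 and 0.56) or 3 (0.54, 0.47, 0.51 and 0.51). Psme4 had the lower ratio, at -2.75 and -3.01 at 24 h, against -2.33, -2.20 and -2.46 at 0 h (-0.55 ± 0.17, adjusted p = 0.027), a call lost without 24 h replicate 1 or 2 (-0.68 and -0.42) or 0 h replicate 2 (-0.48). At 13 h against 0 h, 1 member was called (background 3.86% higher and 3% lower), namely Psmc6, higher by 0.75, a call lost without any 1 library (0.50 to 1.00). At 24 h against 13 h, 2 were called, both higher (background 3.77% higher and 0.841% lower). These were Psme3, by 1.33, lost without 13 h replicate 2 or 24 h replicate 1 or 2 (1.01, 1.30 and 1.36), and Psmd3, by 0.91, lost without any 1 library other than 0 h replicate 1 or 2 (0.71 to 1.10). Start and gene-body reads come from the same libraries.

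**Figure D4:**
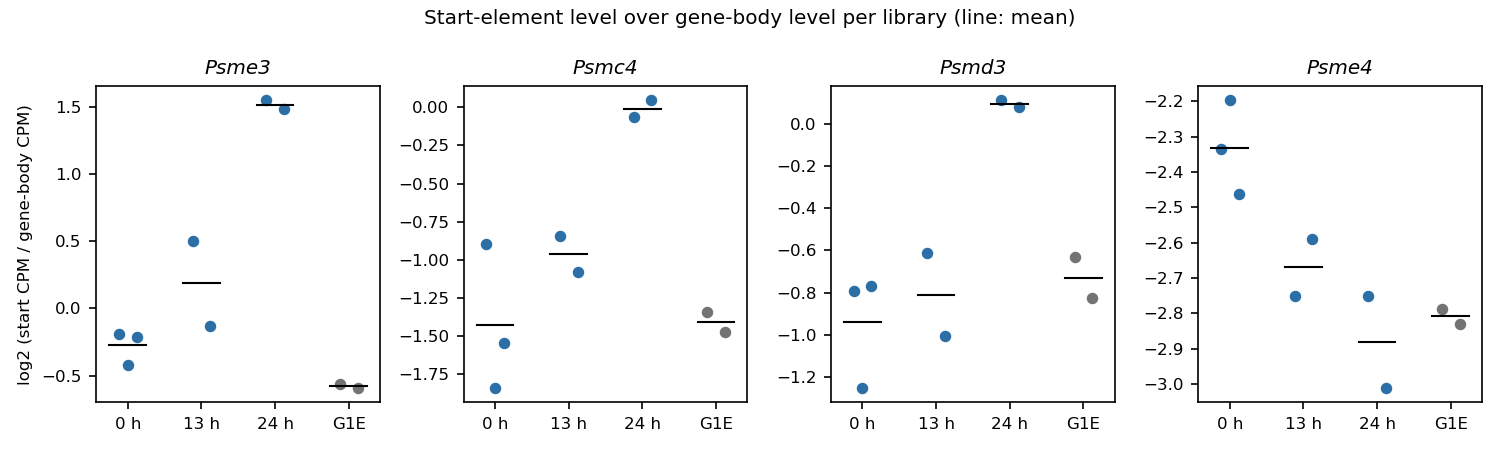
Log2 ratio of start-element CPM to gene-body CPM per library for Psme3, Psmc4, Psmd3 and Psme4 in G1E-ER4 cells at 0 h, 13 h and 24 h and in G1E cells, with lines at the group means and a separate vertical scale per panel. The 24 h libraries of Psme3, Psmc4 and Psmd3 lie above all other libraries of the panel, and those of Psme4 lie below the 0 h libraries.

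Some peaks lie inside these genes and away from the start. Of 18 such entries, 14 were tested. At 24 h against 0 h, 3 were called higher and 2 lower (21.4% and 14.3%), beside 22.7% and 29.5% of all 35158 elements. A sense entry within Psme4 was at 14.1 and 22.5 CPM at 24 h, against 4.55, 2.27 and 4.14 CPM at 0 h (2.32 ± 0.39, adjusted p = 0.00023), and a sense entry within Psmg4 fell by 1.88 ± 0.46 (adjusted p = 0.0037). Each ran the same way as its gene body, and reads of the gene body fall within such entries too.

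Genes that work with the proteasome were set beside the members. Of 11 other parts and partners, 6 were called higher at 24 h than at 0 h and 1 lower, beside 29% and 30.7% of all genes. Akirin2, known for proteasome import into the nucleus, was at 169 and 176 CPM at 24 h, against 61.1, 75.1 and 64.5 CPM at 0 h, and rose by 1.37 ± 0.13 (adjusted p = 1.1e-05). Zfand5, a ubiquitin-binding proteasome activator, was at 284 and 398 CPM at 24 h, against 169.5, 171 and 146 CPM at 0 h (1.07 ± 0.15, adjusted p = 0.00014). Shfm1, the small lid subunit, rose by 0.63 ± 0.13, and Usp14, a proteasome deubiquitinase, by 0.43 ± 0.11. Both were not called under total-count scaling (0.24 and 0.04), and Usp14 not without 24 h replicate 2 (0.29). Ube3c (0.33 ± 0.12) and Txnl1 (0.31 ± 0.12) were the remaining higher calls, and both changed sign under that scaling. Pomp, the maturation protein of the core, was not called at 24 h against 0 h (-0.13 ± 0.13), and in G1E-ER4 at 0 h, at 53.6, 56.2 and 61.6 CPM, it lay below its 85.9 and 96.7 CPM in G1E (-0.68 ± 0.13), not called without G1E replicate 2 (-0.58).

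Of 15 tested regulators and shuttles, 8 were called higher and 3 lower at 24 h against 0 h, beside the same 29% and 30.7% of all genes. Among those called higher, Vcp and Nploc4 changed sign under total-count scaling. Bach1, a haem-sensing repressor, was at 971 and 994 CPM at 24 h, against 61.3, 62.4 and 44.4 CPM at 0 h (4.13 ± 0.21, adjusted p = 5.5e-07). Nfe2l1, the factor that is known to drive proteasome genes when proteasome activity falls short, was at 59.9 and 51.8 CPM at 24 h, against 56.2, 65.3 and 63.5 CPM at 0 h, and was not called (-0.14 ± 0.19). Its relative Nfe2l2, also on this list, was called higher at 24 h over 0 h (0.70 ± 0.14, adjusted p = 0.0013). That call was lost under total-count scaling (adjusted p = 0.0996). Ddi2, the protease that activates the Nfe2l1 protein, fell by 0.97 ± 0.17. Stat3 rose by 1.58 ± 0.18, Foxo4 by 1.35 ± 0.20, and Ubqln4, a shuttle for ubiquitin-tagged proteins, fell by 1.51 ± 0.14. Uba1, the main ubiquitin-activating enzyme, rose by 0.97 ± 0.12, while Rps27a, which encodes ubiquitin fused to a ribosomal protein, fell by 1.13 ± 0.25.

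The summed gene-body level of all 50 genes was 3150, 3221 and 3367 CPM at 0 h, 3757 and 3458 CPM at 13 h, 4537 and 5105 CPM at 24 h, and 3366 and 3457 CPM in G1E. Psme4 made up 20.3% and 24.5% of the sum at 24 h, against 6.75%, 5.94% and 5.97% at 0 h. Without Psme4 the sums were 3617 and 3856 CPM at 24 h, against 2937, 3030 and 3166 CPM at 0 h. The 20S alpha and constitutive beta genes summed to 1038 and 1092 CPM at 24 h, against 1060, 1069 and 1086 CPM at 0 h, ranges that overlapped. The 19S subunit genes summed to 2039 and 2181 CPM at 24 h, against 1430, 1522 and 1617 CPM at 0 h. The TMM factors behind these levels were 0.828 and 0.824 at 24 h, and 1.12, 1.08 and 1.04 at 0 h. Scaled by total counts alone, every sum would be lower at 24 h and higher at 0 h than printed. The differences between 24 h and 0 h therefore depend on the scaling, and none was tested. These sums weigh long and highly transcribed genes most and are given as a description.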

How the data were processed

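The authors deposited raw read counts per gene body and per dREG peak or peak strand, per the file headers, and BWA and build mm9 are named in the submitters' processing notes. Neither the aligner's version nor the counting tool, its use of strand and its annotation is stated. Counts were fitted in R 4.3.3 with edgeR 4.0.16 (TMM, filterByExpr, 4 group means over 9 libraries, robust quasi-likelihood test, 5 residual degrees of freedom), with Benjamini-Hochberg adjustment over 13825 genes or 35158 elements and a threshold of 0.05. The SE is the absolute log2 fold change over the square root of F. CPM is relative to the summed reads of the same table, after TMM. Start-to-body ratios used limma 3.58.1, and DESeq2 1.42.0 was an alternative. The fit was tested on simulated data. Totals of 37830789 to 139945759 gene-body reads limit precision, and counting intervals cover counting error only. The members and gene lists were chosen with earlier results of these data known. Chosen for fuller description were the 4 called members with the largest change each way in each comparison, catalytic subunits, caps, inhibitor, Psmd4 and Psmc3ip. The same held for up to 4 called genes of each other list, Nfe2l1 and Pomp. Library levels are printed for many of these but not for all. Others are named by role, some with library levels. Positions marked mm9 are the deposited peak table's; sequences and gene overlaps come from RefSeq (GRCm38.p6), in which 50 of 50 members matched, and no position was converted. The cluster and pANOVA columns that the authors deposited were not used.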

Additional observations from a re-analysis of the deposited data

How the results depend on the processing

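Of 164 called values named here (members, start elements, ratios and partner genes), 72 passed the test under every alternative tried, 92 were lost in at least 1, and 4 changed sign. Under total-count scaling, Ube3c, Txnl1, Vcp and Nploc4 changed sign at 24 h against 0 h (-0.060, -0.075, -0.049 and -0.069), and members called in gene bodies were 9 higher and 22 lower at 24 h against 0 h (of all genes 18.9% and 42.4%), 11 lower at 13 h against 0 h (of all genes 24.3%), and 2 higher and 6 lower at 24 h against 13 h (4.64% and 22.3%). Start elements under that scaling had 1 lower at 13 h against 0 h, 1 higher at 24 h against 13 h and 0 lower at 0 h against G1E. Size factors of the DESeq2 method left 1 lower gene body at 24 h against 13 h (12% of all genes), and the DESeq2 test gave 7 higher start elements there. With no filter on low counts, 0 start elements were lower at 0 h against G1E. Gene-body scaling of the elements left 2 lower at 24 h and 0 at 13 h, each against 0 h. Same-numbered libraries were not taken as paired: their deviations correlated at 0.493 for 13 h with 0 h, where the same-numbered titles also have consecutive prefixes, at 0.162 for 24 h with G1E, and between -0.155 and 0.0184 for the other pairs of groups. The replicate block gave 14 higher and 9 lower gene bodies at 24 h against 0 h (25.9% and 27.7% of all genes). At 13 h against 0 h it gave 8 and 5 (15% and 15.4%). It gave 0 lower at 24 h against 13 h (9.45%), 1 lower at 0 h against G1E (6.16%), and 7 higher start elements at 24 h against 13 h. With the title prefixes grouped as a block, gene bodies had 11 higher and 9 lower at 24 h against 0 h (24.5% and 26.3% of all genes). They had 0 higher and 0 lower at 24 h against 13 h (0.159% and 0.268%), and 1 higher and 0 lower at 0 h against G1E (2.54% and 3.39%). Start elements in that fit had 3 lower at 24 h against 0 h, 2 higher at 24 h against 13 h and 0 lower at 0 h against G1E. Leaving out 1 library at a time gave 13 to 15 higher and 8 to 13 lower gene bodies at 24 h against 0 h, 7 to 10 and 4 to 7 at 13 h against 0 h, 2 to 10 and 0 to 3 at 24 h against 13 h, and 2 to 4 and 0 to 2 at 0 h against G1E. For start elements it gave 15 to 22 and 1 to 5, 5 to 8 and 1 to 2, 1 to 6 and 0 to 0, and 2 to 4 and 0 to 1, in the same order. The leave-one-out and start-element counts in this section are given without the shares of all genes or elements in the same fits. No result about the members is read from them. The causes of these shifts were not tested. Low reads limit Psmb8, Psmb9, Psmb11, Psme2b and Psma8 before estradiol.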
